A study of Mus musculus with 8 samples.

Results

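The genes described here are 8 that neutrophils transcribe as they mature: Ngp, S100a8, S100a9, Ltf, Camp, Lcn2, Mmp8 and Cebpe. They were chosen by name from the 50686 genes of the deposited tables, and all 8 were measured in each library and passed the filter on low counts. The question was how much of their RNA the libraries of sorted hematopoietic stem cells (HSCs, the marrow cells that maintain every blood lineage) held in each size gate and without size gating.

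The HSCs came from long-bone marrow of C57BL/6J mice, with no genotype change or treatment named for any library and no age or sex given. After red cell lysis and depletion of cells bearing lineage antigens, the stem cell antigens stained were CD117, Sca-1, CD150 and CD48, cells were sorted with gates on light scatter, and each library was made from 10000 cells in G0/1 with a low-input kit. Small and Large are the 10% of the HSC preparation at the lower and the upper end of size, Medium lies within 10% of the mean size, and All was not divided by size. Each of these 4 groups has 2 libraries, numbered 1 and 2 in the titles. Nothing in the labels says whether the 2 libraries of a group came from separate mice or what the number stands for, so any p-value reflects only how far these libraries spread, and that spread may be technical. Libraries from mice given PD or rapamycin belong to the series design but were not analysed here.

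A neutrophil fills its granules in waves as it matures in the marrow. Enzymes of the primary granules, such as myeloperoxidase, are transcribed first, at the promyelocyte stage. The proteins of the secondary and tertiary granules follow at the myelocyte and metamyelocyte stages, under the transcription factor C/EBP epsilon, and receptors of the circulating cell come last. Granulocytic cells make up a large share of the nucleated cells of mouse marrow, and lineage depletion is meant to remove the more mature of them. HSCs themselves are not known for secondary granule proteins.

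Total counts ran from 13698362 to 16838448 per library. All 30 genes of an HSC identity list (among them Procr, Mecom and Hoxb5) were detected and tested, so no defining transcript was absent. Their summed level was 1384 to 2971 CPM in the libraries numbered 1 and 3083 to 5728 CPM in those numbered 2. Some single genes spread more widely than the sum. Procr was at 5.29 CPM in Large 1 and 179.4 CPM in All 2, and Ly6a, which encodes Sca-1, at 20.44 CPM in Large 1 and 365.8 CPM in Medium 2. Others spread less, such as Kit, at 512.9 CPM in Large 1 and 1196 CPM in Small 2. CPM here is counts scaled to a library total of 1000000 with TMM factors, so a level is relative to the other genes of that library.

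Of the 8 genes, 4 lie on chromosome 9, and no annotated gene overlaps any of the 8 (GENCODE M21, GRCm38, the assembly called mm10). Camp lies at chr9:109847379-109849617 on the minus strand, Ngp at chr9:110419747-110423012 on the plus strand and Ltf at chr9:111019271-111042767 on the plus strand. The gap from Camp to Ngp is 570.1 kb with 8 other protein-coding genes in it, and the gap from Ngp to Ltf is 596.3 kb with 20. Mmp8 is on the same chromosome, far from these, at chr9:7558456-7568485 on the plus strand. S100a8, at chr3:90668978-90670035 on the plus strand, and S100a9, at chr3:90692632-90695721 on the minus strand, are neighbours 22596 bp apart with no protein-coding gene between them. Lcn2 lies at chr2:32384633-32388252 and Cebpe at chr14:54710360-54712174, both on the minus strand.

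C/EBP proteins, including the product of Cebpe, bind DNA through a short core, here searched as TTNNGNAA on both strands in the 250 bases before each RefSeq gene start (GRCm38.p6). The RefSeq table held 7 of the 8 genes (not Cebpe). The core was found in 6 of the 7, all but Camp, and in 36.8% of the 32851 promoters of the table. For Lcn2 the whole window lies inside the gene as GENCODE annotates it. Parts of the windows of Ngp, S100a8, Ltf and Camp do too. GGAAGT, an ETS core, was in 3 of 7 (S100a8, S100a9 and Mmp8) against 19.7% of all promoters, and AATCAC, a Gfi1 core, was in 3 of 7 (S100a8, Ltf and Mmp8) against 9.14%. TATAAA was in 1 of 7 (S100a8, 30 bases before the RefSeq start but inside the gene of GENCODE) against 12.4%. The AATCAC of Ltf shares 1 base with a C/EBP core. These are matches of letters, not measured binding sites. The 4 sequences below are those with more than 1 C/EBP core before the annotated gene start. They are shown for these matches only, and levels across the libraries did not set the 4 genes apart. Camp, with no core, had a correlation of 0.99 with the mean log2 level of the 8 genes. S100a8 and Lcn2, with 1 core each, had 0.997 and 0.987. Mmp8, low in 1 library as described further on, had 0.866. Capitals mark the C/EBP core matches, and each runs 5′ to 3′ on the strand of its gene. Ngp is chr9:110419558-110419746 (plus strand), S100a9 is chr3:90695722-90695971 (minus strand), Ltf is chr9:111019042-111019270 (plus strand) and Mmp8 is chr9:7558179-7558428 (plus strand).
Ngp: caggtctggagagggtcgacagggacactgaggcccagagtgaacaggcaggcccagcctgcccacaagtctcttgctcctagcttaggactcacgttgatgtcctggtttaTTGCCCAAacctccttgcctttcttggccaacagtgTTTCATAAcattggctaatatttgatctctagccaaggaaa
S100a9: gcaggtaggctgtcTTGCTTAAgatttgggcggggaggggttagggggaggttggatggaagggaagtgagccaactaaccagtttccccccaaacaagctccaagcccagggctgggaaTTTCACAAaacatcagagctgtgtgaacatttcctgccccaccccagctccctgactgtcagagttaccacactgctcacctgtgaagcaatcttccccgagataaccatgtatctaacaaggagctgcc
Ltf: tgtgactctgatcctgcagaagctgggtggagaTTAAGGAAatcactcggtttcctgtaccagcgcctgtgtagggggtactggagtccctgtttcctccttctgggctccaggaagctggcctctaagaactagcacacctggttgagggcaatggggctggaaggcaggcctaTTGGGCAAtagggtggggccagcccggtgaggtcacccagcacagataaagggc
Mmp8: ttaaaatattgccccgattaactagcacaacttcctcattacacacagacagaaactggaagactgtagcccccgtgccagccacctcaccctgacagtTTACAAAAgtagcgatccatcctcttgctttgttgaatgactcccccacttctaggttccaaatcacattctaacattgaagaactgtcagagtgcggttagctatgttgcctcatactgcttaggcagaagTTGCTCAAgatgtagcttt

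The summed level of the 8 genes was 24449 CPM in Small 1 and 7037 CPM in Small 2, 15106 and 4040 CPM in Medium 1 and 2, 17300 and 11167 CPM in Large 1 and 2, and 47865 and 3202 CPM in All 1 and 2. The library numbered 1 held more of this RNA in each group, by 3.47-fold in Small, 3.74-fold in Medium, 1.55-fold in Large and 14.9-fold in All. The HSCs not divided by size thus held both the highest and the lowest sum. As a share of all counts, the 8 genes made up from 0.338% in All 2 (exact binomial 95% interval 0.335% to 0.341%) to 4.66% in All 1 (4.65% to 4.67%). Such intervals hold counting error alone, because the reads were amplified and carry no molecular identifiers. In bulk RNA, fewer cells of a type and less RNA per cell cannot be told apart.

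The granule proteins come first. Ngp encodes a cystatin-related protein of neutrophil granules. Its level was 8306 and 2562 CPM in Small 1 and 2, 4373 and 1203 CPM in Medium, 5883 and 3875 CPM in Large, and 17010 and 989.7 CPM in All. The 4 libraries numbered 1 lay above the 4 numbered 2, and the size groups overlapped one another. Ngp was the gene with the most counts of all in All 1 (244182 counts), second in Small 1 and 73rd in All 2.

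Camp encodes the precursor of the cathelicidin antimicrobial peptide. Its level was 1540 and 431.7 CPM in Small 1 and 2, 1194 and 327.2 CPM in Medium, 1247 and 789.8 CPM in Large, and 3504 and 179.2 CPM in All. The 19.6-fold gap between All 1 and All 2 was the widest of the 8 genes in that group. The groups again overlapped, and the numbers did not.

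Ltf encodes lactoferrin, the iron-binding protein of secondary granules. Its level was 2920 and 881.5 CPM in Small 1 and 2, 1249 and 356.3 CPM in Medium, 1764 and 1257 CPM in Large, and 4929 and 374.9 CPM in All. Here the numbers touched, with Medium 1 just under Large 2. Without TMM scaling, Medium 1 lay above Large 2, at 1305 against 1227 CPM.

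Lcn2 encodes lipocalin 2, which binds bacterial siderophores and so withholds iron. Its level was 706.6 and 232.0 CPM in Small 1 and 2, 437.5 and 124.5 CPM in Medium, 524.3 and 333.2 CPM in Large, and 1646 and 126.5 CPM in All. The order of the libraries numbered 1 was All, Small, Large and Medium, as for Ngp, S100a8, S100a9, Ltf and Camp.

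Mmp8 encodes neutrophil collagenase. Its level was 462.1 and 10.64 CPM in Small 1 and 2, 187.8 and 48.16 CPM in Medium, 150.3 and 76.61 CPM in Large, and 621.8 and 47.62 CPM in All. Small 2 stood apart at 149 counts (exact Poisson 95% interval 126 to 175, counting error only). The 43.4-fold gap within Small compares with 3.05- to 3.77-fold for the other 7 genes in the same group.

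S100a8 and S100a9 encode the 2 chains of calprotectin, a calcium- and zinc-binding complex of the neutrophil cytosol that is secreted in inflammation. S100a8 was at 5841 and 1551 CPM in Small 1 and 2, 4279 and 1077 CPM in Medium, 4322 and 2660 CPM in Large, and 10800 and 803.0 CPM in All. S100a9 was at 4643 and 1361 CPM in Small 1 and 2, 3370 and 898.2 CPM in Medium, 3385 and 2163 CPM in Large, and 9329 and 678.9 CPM in All. Both chains had every library numbered 1 above every library numbered 2, and Medium 1 and Large 1 nearly equal.

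Cebpe encodes C/EBP epsilon, the factor that secondary granule genes depend on. Its level was 29.5 and 7.997 CPM in Small 1 and 2, 15.88 and 4.619 CPM in Medium, 24.59 and 11.77 CPM in Large, and 29.25 and 2.308 CPM in All. Unlike the other 7 genes, it was no higher in All 1 than in Small 1.

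**Figure D1:**
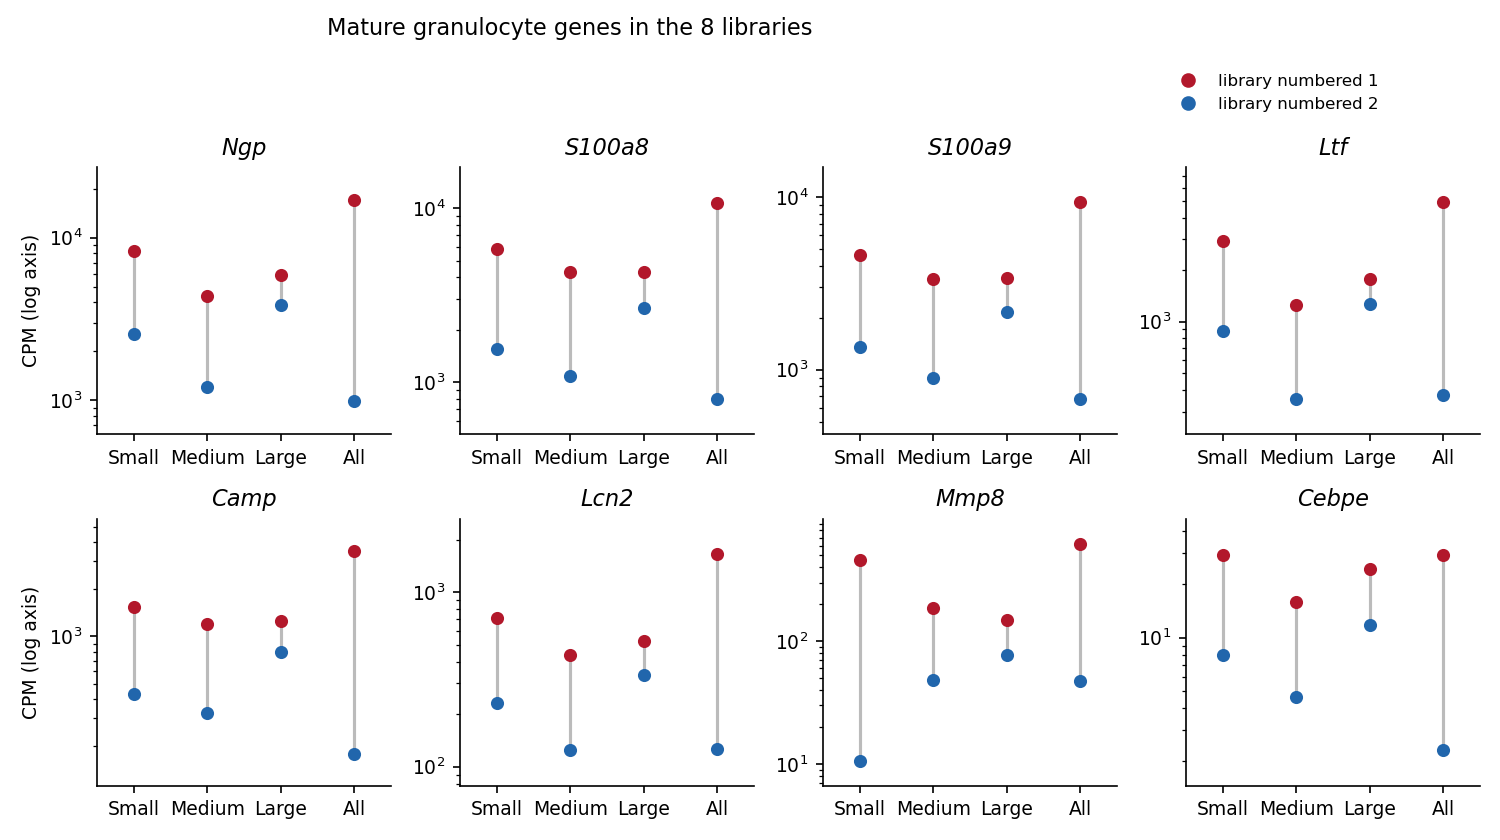
Level of each of the 8 genes (TMM-scaled CPM, log axis, own scale per panel) in the 4 groups, 1 point per library, with a line joining the 2 libraries of a group. In each panel the library numbered 1 (red) lies above the one numbered 2 (blue) in every group, with the narrowest gap in Large for each gene.

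Levels of different genes can be set side by side only per length, as TPM (transcript abundance relative to a fixed total, from the deposited log2 values). By median TPM over the 8 libraries, S100a8 was the most abundant at 10270 (2818 to 32350), followed by S100a9 at 7706, Ngp at 4875, Camp at 1865, Ltf at 1227, Lcn2 at 615.3, Mmp8 at 62.34 and Cebpe at 16.14. The ranges of neighbours in this order overlapped over the libraries. Within each single library, however, S100a8 was above S100a9 and S100a9 above Ngp, and Camp was above Ltf in all but Small 2.

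None of the 8 genes passed edgeR's quasi-likelihood test in any of the 6 comparisons between groups, and this test called 0% of the 16066 genes tested in each of them. Unadjusted p was under 0.05 for 506 genes in Large against Small, 695 in Medium against Small, 301 in Large against Medium, 637 in Small against All, 262 in Medium against All and 504 in Large against All. None of the 8 genes was among these in any comparison. Their adjusted p ran from 0.885 to 1, and DESeq2 and limma-trend called none of them either, out of 2 to 47 and 0 to 1 genes called over the 6 comparisons. With no filter on low counts, edgeR called 7 of the 8 in Medium against All, where 48 of 28543 genes were called (0.168%). It called 1 of the 8 in Large against All (121 genes, 0.424%) and 1 in Medium against Small (73 genes, 0.256%), although the libraries of the 2 groups overlapped for all 8 genes in each of these comparisons.

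For the first gate comparison, Large against Small, the mean level of Ngp was 4879 ± 1420 CPM in Large and 5434 ± 4060 CPM in Small (SD, n = 2). The fitted log2 fold change of Ngp was -0.15 (SE 1.20), and over the 8 genes it ran from -1.06 (Mmp8) to 0.05 (Camp), with a median of -0.12 beside 0.00 for all genes. Each SE, from 1.12 to 1.64, was larger than the difference itself. The median was 1.10 without Small 1 and 0.17 without Large 2, so its sign rested on single libraries.

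Medium had the lowest mean of the 3 gates for each gene except Mmp8, for which it was Large. Ngp had a mean of 2788 ± 2240 CPM in Medium (SD, n = 2), with a fitted log2 fold change of -0.96 (SE 1.21) against Small and, for Large against Medium, 0.81 (SE 1.21). The median over the 8 genes was -0.81 for Medium against Small and 0.51 for Large against Medium, beside -0.01 for all genes in both. The first became 0.50 without Small 1 and the second -0.17 without Medium 2. Within both numbers, 7 of the 8 genes were higher in Small than in Medium, and the same was true of 29.3% of all genes. Likewise 7 of 8 were higher in Large than in Medium within both numbers, against 32.9% of all genes. Mmp8 was the exception in both counts.

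Against All, where the mean of Ngp was 8999 ± 11300 CPM (SD, n = 2), the spread between libraries exceeded the mean. The median log2 fold change of the 8 genes was -0.69 for Small, -1.39 for Medium and -0.85 for Large, beside -0.04, -0.02 and -0.03 for all genes. Without All 1 these medians were 2.37, 1.63 and 2.10. With limma-trend on the deposited log2 values and all libraries kept, they were 0.08, -0.71 and 0.06. The direction thus turned without All 1 in each comparison, and with the tool for Small and for Large. These 3 comparisons share the All libraries.

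Within 1 replicate number each group is a single library, so these differences have no replicate check. In number 1, each of the 8 had less in Large than in Small (median difference -0.45 in log2 CPM). In number 2, all 8 were higher (0.63). Large against All gave the same split, with all 8 lower in number 1 (-1.49) and all 8 higher in number 2 (1.74). Medium against Small had the same sign in both numbers, at -0.79 and -0.69, with Mmp8 higher in number 2.

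**Figure D2:**
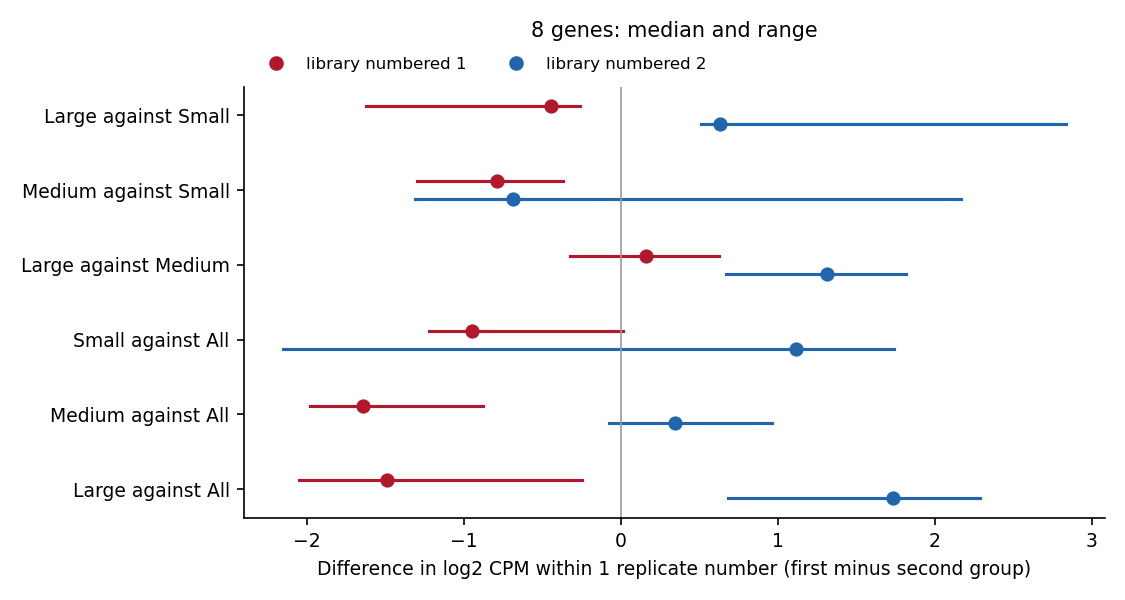
Difference in log2 CPM between groups within each replicate number, as the median (point) and range (line) over the 8 genes, with number 1 in red and number 2 in blue. Large against Small and Large against All lie on opposite sides of 0 in the 2 numbers, while the medians of Medium against Small lie at -0.79 and -0.69.

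The replicate number was then compared within the 4 groups, in a fit with group and number as terms (3 residual degrees of freedom). This comparison was chosen after earlier results of these data had shown that the libraries differ by number. Cebpe was higher in number 1 (log2 fold change 2.05, SE 0.40, edgeR adjusted p = 0.00922), in 4 of 4 groups. The other 7 genes had fold changes of like size with wider errors and did not pass. S100a8 had 2.07 (SE 0.61, adjusted p = 0.0963) and Ngp had 2.02 (SE 0.73, adjusted p = 0.15). Mmp8 had the largest difference and the largest error, at 2.95 (SE 1.01, adjusted p = 0.137). So 1 of 8 genes was called, beside 24.6% of all genes in either direction and 12.1% higher in number 1. The median over the 8 genes was 2.03 and over all genes 0.00.

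That count moved with single libraries and with the tool. Without Small 1 or Small 2 the call on Cebpe ended (edgeR adjusted p = 0.0523 and 0.0561), leaving 0 of 8, beside 11.5% and 11.2% of all genes called. Without All 1 or All 2, all but Mmp8 were called, 7 of 8, beside 18.1% and 18.2% of all genes. DESeq2 called 7 of 8 on all libraries, all but Ngp (adjusted p = 0.0943), beside 32.4% of all genes. All 8 genes were higher in number 1 in each of the 4 groups, as were 23.1% of all genes. For 7 of the 8, all but Ltf, every library numbered 1 lay above every one numbered 2, as for 9.19% of all genes. With library totals only, in place of TMM, this held for 8 of 8.

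**Figure D3:**
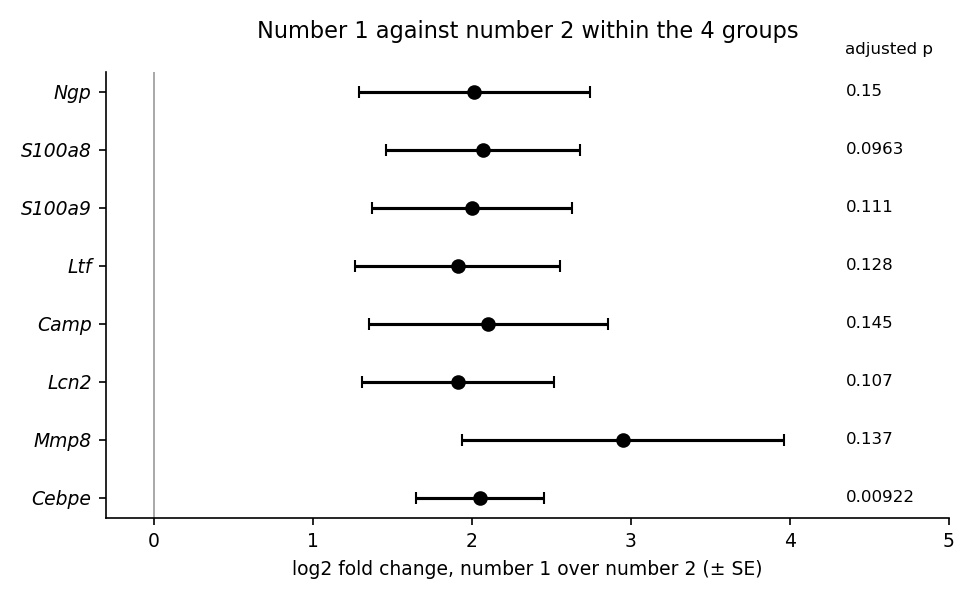
Fitted log2 fold change of number 1 over number 2 (point) with its standard error (bar) for the 8 genes, and the edgeR adjusted p at the right. All 8 points lie near or above 2, and Cebpe, with the shortest bar, has the smallest adjusted p at 0.00922.

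The 4 groups did not share 1 size of this gap. For each of the 8 genes the fold of number 1 over number 2 was lowest in Large, between 1.40 (Ltf) and 2.09 (Cebpe). It was 3.44 to 3.97 in Medium and 12.7 to 19.6 in All. In Small it was 3.05 (Lcn2) to 3.77 (S100a8), except for Mmp8 at 43.4, which was above the 13.1 of Mmp8 in All. For 4 of the 8, Ngp, S100a8, S100a9 and Camp, All 1 was the highest of the libraries numbered 1 and All 2 the lowest of those numbered 2, a pattern that 4.93% of all genes had.

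Within a library, 6 of the 8 genes kept nearly fixed proportions. Per 100 counts of Ngp, S100a8 had 60.5 to 97.9 counts, S100a9 had 53.1 to 77.1, Ltf had 28.6 to 37.9, Camp had 16.9 to 27.3 and Lcn2 had 8.51 to 12.8. The highest ratio of each of these 5 was 1.33 to 1.62 times its lowest, while Ngp itself spanned 17.2-fold. Medium had the highest ratio of S100a8, S100a9 and Camp in both of its libraries and the lowest of Ltf in 1 of them. Over the 8 libraries, the log2 levels of the 28 pairs of genes had correlations from 0.738 to 0.999, with a median of 0.965. These points share their library's depth and composition.

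Mmp8 and Cebpe departed from those proportions in different libraries. Mmp8 had 0.415 counts per 100 of Ngp in Small 2 and 1.98 to 5.56 in the other 7 libraries. Correlations with Mmp8 were 0.738 to 0.843, while the 21 pairs without it were at 0.921 or more. In Small 2, S100a8, S100a9 and Camp also had their lowest ratio, although by a small margin, which makes 4 of the 8 genes. Of all genes, 1.81% had their lowest ratio to Ngp in that library. A gene that does not follow Ngp tends to have its lowest ratio in All 1, where Ngp was highest. That share is therefore no fair background for genes that follow Ngp. Of 28 late neutrophil genes tested, 6 had their lowest ratio to Ngp in Small 2, and so did 3 of 25 other secondary and tertiary granule genes. Retnlg, which encodes resistin-like gamma, had 0.873 counts per 100 of Ngp in Small 2 and 2.51 to 9.18 elsewhere. Cxcr2, the chemokine receptor of the circulating neutrophil, had 0.0585 and 0.219 to 0.705. Mmp9, gelatinase B of the tertiary granules, had 0.702 and 1.13 to 4.05. Most genes of both lists did not have this pattern. Chil3, at 41.2, was not low in Small 2, its range elsewhere being 28.5 to 39.9. Csf3r, at 10.3, and Itgam, at 3.8, were above their ratios in Small 1, which were 3.56 and 2.02. Retnlg, Cxcr2, Mmp9, Chil3, Csf3r and Itgam were singled out after their values were seen.

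Cebpe had 0.304 to 0.418 counts per 100 of Ngp in the 6 size-gated libraries and 0.172 and 0.233 in All 1 and All 2. It was the 1 member below all gated libraries in both All libraries, as 2.37% of all genes were. Ngp was lowest in All 2, so a gene that does not follow Ngp is seldom low there, and this share is no fair background either. Mpo and Elane, from the primary granule list, also lay lower in both All libraries, with a wider gap. Mpo, myeloperoxidase, had 126 to 281 counts per 100 of Ngp in the gated libraries and 31.0 and 13.3 in All 1 and 2. Elane, neutrophil elastase, had 42.2 to 108 and then 12.5 and 6.13. Of the 12 primary granule genes, 7 were lower relative to Ngp in both All libraries than in all 6 gated ones. Prtn3 was not, with 11.2 in All 2 and 10.6 in Small 1. The pattern was also found in 4 of 25 other secondary and tertiary granule genes and 3 of 28 late neutrophil genes. Lists of other cells had it too, such as 3 of 12 mast cell, basophil and eosinophil genes, 3 of 16 monocyte and macrophage genes and 3 of 20 G2/M genes. Over the 8 libraries, the correlation with Mpo in log2 CPM was highest for Cebpe, at 0.878, and lowest for Mmp8, at 0.444, with the other 6 between 0.646 and 0.754.

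**Figure D4:**
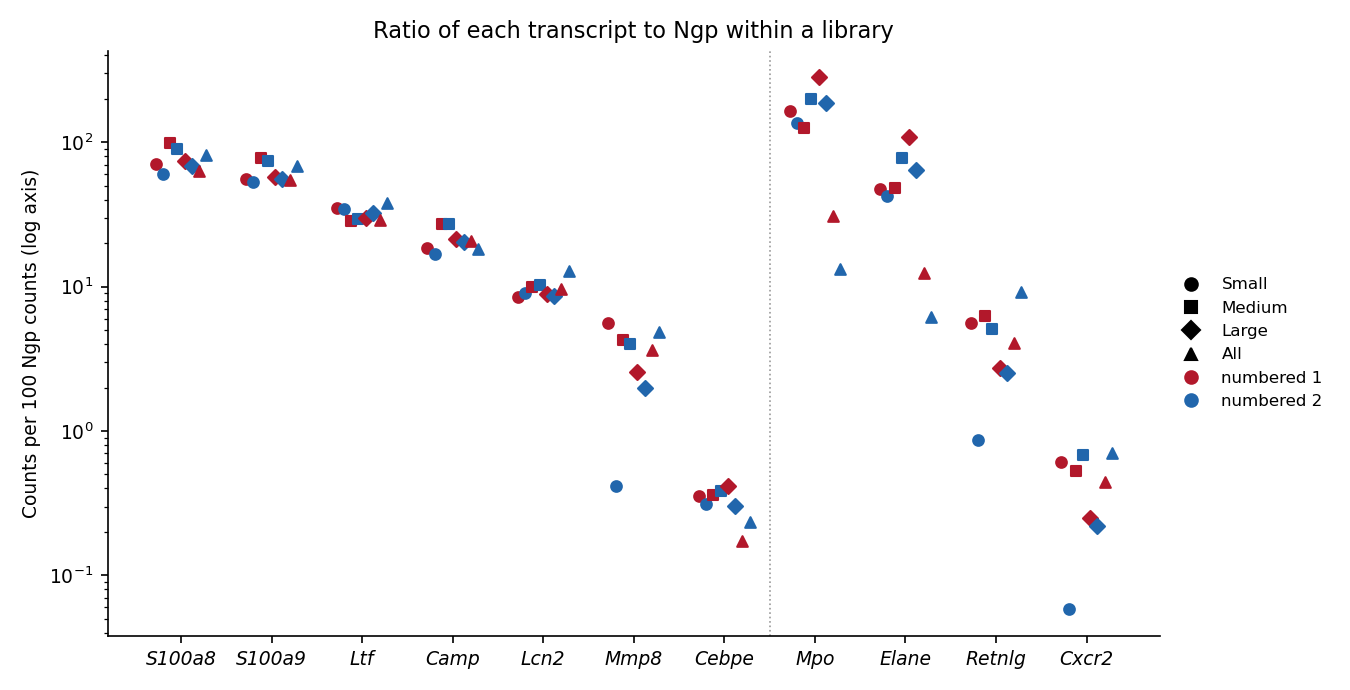
Counts of each transcript per 100 counts of Ngp in the same library (log axis), 1 point per library, with shape for the group and colour for the number. S100a8 to Lcn2 form tight columns, Mmp8, Retnlg and Cxcr2 have 1 low point each in Small 2 (blue circle), and Cebpe, Mpo and Elane are lowest in the All libraries (triangles).

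Other neutrophil lists were set beside the 8 genes in the comparison of the numbers. Of 26 other secondary and tertiary granule genes, 25 were tested, 3 passed as higher in number 1 (Cyba, Olfm4 and Ceacam10) and 1 as lower (Padi4), with a median log2 fold change of 1.77. The list's most abundant gene, Lyz2 (lysozyme), was at 4802 and 1939 CPM in Small 1 and 2, 3023 and 1785 CPM in Medium, 2630 and 2512 CPM in Large, and 7933 and 1282 CPM in All (log2 1.18, SE 0.50, edgeR adjusted p = 0.192). Chil3, a chitinase-like protein, was at 5800 CPM in All 1 and 282.3 CPM in All 2. The summed level of the list was 7190 to 20434 CPM in number 1 and 2768 to 6884 CPM in number 2.

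Of 29 late neutrophil genes, 28 were tested, 8 passed as higher in number 1 and 1, Wfdc17, as lower, with a median of 1.96. Ly6g, the surface antigen used to recognise neutrophils and a target of the lineage depletion, was 1 of the 8. It was at 29.69 and 7.926 CPM in Small 1 and 2, 23.26 and 7.636 CPM in Medium, 27.23 and 10.92 CPM in Large, and 95.21 and 9.906 CPM in All (log2 2.02, SE 0.32, edgeR adjusted p = 0.00396). Csf3r, the receptor of granulocyte colony-stimulating factor, was at 159.7 to 296.1 CPM in all 8 libraries and had a fold change of 0.06 (SE 0.12), with a correlation to the mean of the 8 genes of 0.263. Genes named in this and the other lists because they were called, not for their abundance, were chosen after their values were seen.

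The 12 primary granule genes had a median of 1.90, with Prtn3, Nkg7 and Hk3 called higher in number 1 and Ctsc lower. Mpo was at 13620 and 3462 CPM in Small 1 and 2, 5516 and 2404 CPM in Medium, 16530 and 7201 CPM in Large, and 5276 and 131.7 CPM in All (log2 2.24, SE 0.99, edgeR adjusted p = 0.219). The summed level of this list was highest in Large 1, at 32550 CPM, and was 11942 CPM in All 1, the library in which the sum of the 8 mature granulocyte genes was highest.

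**Figure D5:**
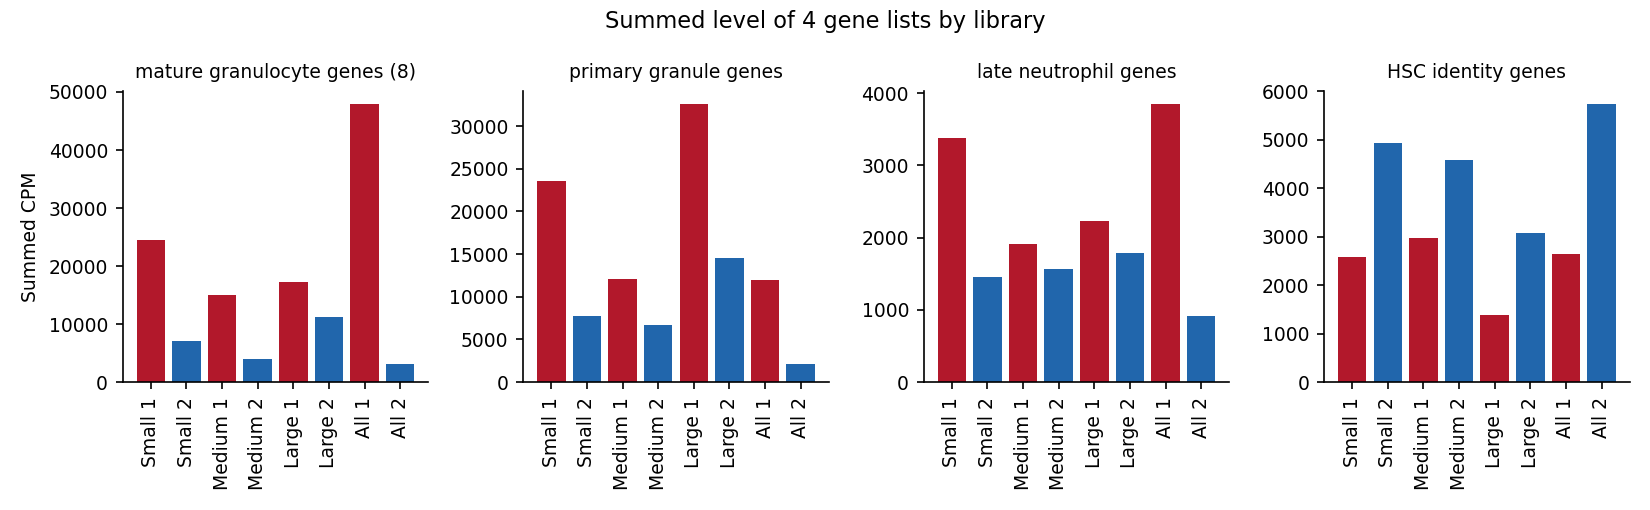
Summed CPM of the 8 genes, 12 primary granule genes, 29 late neutrophil genes and 30 HSC identity genes in each library (bars from 0, own scale per panel; red for number 1, blue for number 2). The 8 genes peak in All 1 at 47865 CPM, primary granule genes in Large 1 at 32550 CPM, and HSC identity genes in All 2 at 5728 CPM.

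Lists of regulators and partners had medians nearer 0. Of 12 granulocyte transcription factors, 1 was called higher in number 1 (Cebpd) and 2 lower (Cebpb and Klf4), with a median of 0.18. Cebpb, a C/EBP factor of mature and emergency granulopoiesis, was at 81.99 to 159.2 CPM in number 1 and 200.9 to 307.5 CPM in number 2 (log2 -1.25, SE 0.14, edgeR adjusted p = 0.000942), the opposite order to Cebpe. Spi1, which encodes PU.1, had a fold change of 0.13 (SE 0.14). Of the 6 subunits of the phagocyte oxidase, 1 was called higher in number 1 (Cyba), with a median of 0.67. Of 13 other S100 genes, 8 were tested and 2 were called higher in number 1, S100a1 and S100a11, by 0.56 and 0.54, with a median of 0.38. Of 10 receptors reported for the products of these genes, 9 were tested, none was called higher and 3 were called lower (Emb, Slc22a17 and Lrp1), with a median of -0.03. Emb, embigin, a receptor reported for S100 proteins, was at 198.1 to 383.4 CPM in number 1 and 340.8 to 558.8 CPM in number 2.

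Marker lists of other cells also differed between the numbers. HSC identity genes were called lower in number 1 for 14 of 30 and higher for 1 (Gfi1b), with a median of -0.66. Kit was at 512.9 to 851.5 CPM in number 1 and 699.5 to 1196 CPM in number 2 (log2 -0.48, SE 0.08, edgeR adjusted p = 0.00412). Genes of G2/M phase were called higher for 15 of 20 and lower for none, with a median of 1.51 and sums of 2357 to 3773 CPM in number 1 and 559.7 to 2470 CPM in number 2. Erythroid genes were called higher for 7 of 14 tested and lower for 1 (Hbb-bt), with a median of 0.85. Of 16 monocyte and macrophage genes 2 were called higher (Cx3cr1 and Vcam1), with a median of 0.69 and sums of 552.7 to 1127 CPM and 212.1 to 853.4 CPM.

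T and NK cell genes had 1 higher (Nkg7, which the primary granule list also holds) and 2 lower (Cd4 and Lck) of 12, with a median of 0.60. Endothelial and stromal genes had 0 higher and 2 lower (Pecam1 and Emcn) of 9, with a median of 0.24. B cell genes had 0 higher and 2 lower (Cd79b and Blnk) of 14, with a median of -1.30 and sums of 294.1 to 2172 CPM in number 1 and 332.0 to 5975 CPM in number 2. Mast cell, basophil and eosinophil genes had none called of 12 tested, with a median of 2.07. Their sums were 540.4 to 1855 CPM and 43.5 to 1129 CPM, and the mast cell protease genes Cma1 and Tpsb2 were at 0 in all libraries. The part of these other cells, of cell cycle phase and of whatever the number stands for in the levels of the 8 genes was not tested.

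The genes whose levels across the 8 libraries were most like the mean log2 level of the 8 genes were named by Pearson's r among 10208 genes with a mean of at least 5 CPM. The 12 highest, from 0.993 to 0.978, were Pilra, Id2, Wfdc21, Tnfsf13b, St3gal5, Chil1, Itgb2l, Adpgk, Mrgpra2b, Mcemp1, Ifitm6 and Nudt4. Pilra, an inhibitory receptor of myeloid cells, was at 42.07 and 12.35 CPM in Small 1 and 2, 22.95 and 7.759 CPM in Medium, 24.23 and 18.22 CPM in Large, and 63.52 and 6.192 CPM in All. Among neutrophil genes in the lists, Cd177 had 0.968, Chil3 0.963, Lyz2 0.96 and Ly6g 0.928, while Mpo had 0.71 and ranked 1899th. The lists were not uniform, as Retnlg had 0.852, Cxcr2 0.828, Csf3r 0.263, Dhrs7 -0.332, Padi4 -0.354 and Wfdc17 -0.767. The 5 lowest, from -0.961 to -0.976, were Zfp593, Nlrp10, Serpinf1, Dcxr and Tubb2a. Serpinf1 was at 54.68 to 75.48 CPM in number 1 and 134.0 to 233.9 CPM in number 2. These correlations describe 8 libraries that share groups and numbers, and carry no test.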

How the data were processed

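RNA-seq of 8 libraries of sorted mouse HSCs was used. Per the submitters' processing notes, STAR 2.5.3a, RSEM 1.3.0, SAMtools 1.3 and the build mm10 were used; the sources used here give neither the annotation nor the use of strand. The authors deposited estimated counts per gene, rounded to whole numbers and not scaled, and log2(TPM + 1) values. Of 50686 gene IDs, 50462 matched GENCODE M21.

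Counts were tested with edgeR 4.0.16 (R 4.3.3; limma 3.58.1 and DESeq2 1.42.0 as alternatives), with TMM scaling, filterByExpr (minimum count 10, 16066 genes kept), robust quasi-likelihood, group as the term (4 residual degrees of freedom), and Benjamini-Hochberg adjustment over all genes tested at a threshold of 0.05, two-sided. Replicate number was compared with group as a second term. Each SE is the fold change divided by the square root of the test's F. The procedure was tried on simulated counts. These gave every gene the same spread between libraries, unlike the real data, so they do not show how well it works here. Fold changes are relative to other genes; at library totals of 13698362 to 16838448, 3 counts are 0.178 to 0.219 CPM.

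The 8 genes, all lists and the comparison of the replicate numbers were chosen with earlier results of these data known. From each list, the text names the most abundant genes, up to 4, and those at 0. Likeness used log2 CPM (prior count 2). Alternatives changed scaling, filter, tool and libraries. The results of 2 of the lists are not reported here.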

Additional observations from a re-analysis of the deposited data

Results flagged for a closer look

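The direction of a comparison over the 8 genes was opposite in the 2 replicate numbers for Large against Small and for Large against All. For Large against Small, the median difference in log2 CPM was -0.445 within number 1, with all 8 genes lower in Large, and 0.633 within number 2, with all 8 higher. For Large against All it was -1.486 within number 1, again with all 8 lower, and 1.736 within number 2, with all 8 higher. Each value compares 1 library with 1 library, so the difference between the numbers was not tested. Of all genes, 35.9% had opposite signs in the 2 numbers for Large against Small and 36.2% for Large against All.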

How the results depend on the processing

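The count of the 8 genes called between groups stayed at 0 in all 6 comparisons without any single library, with other scalings, with a filter of 50 counts in 2 libraries, with DESeq2 and with limma-trend. With no filter on low counts, edgeR called 1 in Large against All, 7 in Medium against All and 1 in Medium against Small (121, 48 and 73 of 28543 genes in all), and the cause was not tested; the libraries of these groups overlapped for those genes. For the numbers, 1 was called with all libraries (3947 of 16066 genes) and 7 with DESeq2 (5206 genes). That count also changed when 1 library was left out, which takes its whole group out of the comparison of the numbers. Libraries numbered alike deviated together (correlations of 0.358 to 0.439), but the labels give the number no meaning, and with 2 per group it is not taken as a pairing. With the number as a replicate block, edgeR called 0 of the 8 genes and 0 of all genes in each comparison between groups. DESeq2 with that block, an alternative added after seeing the data, also called 0 of the 8, but 12 (Medium against All) to 1652 (Large against All) of the 16066 genes. The block turned the median of the 8 genes from -0.122 to 0.236 in Large against Small and from -0.853 to 0.035 in Large against All (0.222 and 0.041 in DESeq2). It moved the median from 0.515 to 0.904 in Large against Medium, from -1.39 to -0.815 in Medium against All and from -0.689 to -0.227 in Small against All. Limma-trend gave 0.056 for Large against All, 0.079 for Small against All, -0.709 for Medium against All, -0.047 for Large against Small and 0.65 for Large against Medium. The median log2 fold change for Medium against Small was -0.81, and it was -0.72 with library totals only, -0.718 with limma-trend, -0.668 with the replicate block and -0.676 with that block in DESeq2. With 1 library left out it ran from -1.969 to 0.501. The like ranges were -0.743 to 1.10 for Large against Small, -0.165 to 1.744 for Large against Medium, -1.893 to 2.368 for Small against All, -2.649 to 1.628 for Medium against All, and -1.768 to 2.10 for Large against All. For the numbers the range was 1.451 to 2.494. With library totals only, the median of all genes shifted to -0.14 in Large against Medium and -0.13 in Large against All. The medians of the 8 genes there, 0.373 and -0.904, were 0.51 and -0.77 relative to those shifts.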
